A study of Caenorhabditis elegans with 4 samples.

Results

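The X chromosome of the nematode Caenorhabditis elegans carried 1078 of the 9533 binding regions of the transcription factor MDL-1 in a combined peak list. These 1078 regions were chosen by a single rule, that the chromosome column of the list reads X. Chromatin immunoprecipitation followed by sequencing (ChIP-seq) had been done with fed hermaphrodites of the first larval stage (L1), of the strain OP106, at 20 °C. The labels give 2 libraries of DNA recovered with a goat antibody against GFP and 2 libraries of input DNA, which was not enriched. Both groups share 1 genotype. It combines the mutation unc-119 (ed3) III with the integrated transgene wgIs106, which carries mdl-1::TY1::EGFP::FLAG and a rescuing copy, unc-119(+), so tagged MDL-1 was present in every library. The transgene was introduced by bombardment and the line was outcrossed. It is a single line, the genotype lists no mutation of the native mdl-1 gene, and whole larvae were used, so bound cells of different types are mixed. The question addressed was where the tagged protein sits in the genome at this stage.

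MDL-1 is a basic helix-loop-helix leucine zipper protein of the Mad family. It pairs with the Max-like protein MXL-1 and binds E-box sequences, and its mammalian relatives are known as transcriptional repressors that oppose Myc. The gene mdl-1 itself is X-linked. In hermaphrodites a dosage compensation complex binds along both X chromosomes of somatic cells and lowers their transcription, and X carries few genes expressed in the germ line.

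All positions below are in WormBase WS180. No peak was assigned to a gene and no sequence was read, because an annotation and a genome of that build were not used here. The strength of a peak is -log10 of its q-value, taken from the authors' deposited table, and its width is the last minus the first base plus 1. The list gives 1 value per peak for the combined libraries, so no value has a replicate error and the read depth is unknown. Intervals treat peaks as independent and cover counting error alone. With 1 X chromosome and 5 autosomes, an exact two-sided permutation test over chromosomes cannot give a p below 0.17, so comparisons with autosomes are given as the place of X beside the range of the single autosomes.

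The density of X peaks was lowest at the left end and highest at the right end. From the first peak, at 117135, to 1 Mb it was 38.5 per Mb (34 peaks, 95% exact Poisson interval 26.7 to 53.8). From 17 Mb to the last peak, which ends at 17685151, it was 96.3 per Mb (66 peaks, 74.5 to 123). Among the 16 full 1 Mb segments, that from 13 to 14 Mb was the densest with 93 peaks (75.1 to 114), followed by those from 4 to 5 Mb with 73 and from 5 to 6 Mb with 71. The sparsest were those from 1 to 2 Mb with 46 peaks (33.7 to 61.4), from 9 to 10 Mb with 47 and from 6 to 7 Mb with 48. The intervals of all neighbouring segments overlap. Those of the lowest and the highest full segment do not, but these were picked as the extremes of the 16, so this is no test. Counts in 100 kb windows of X had a variance of 2.43 times their mean, against 2.13 on IV to 3.56 on V. Peaks thus varied more than counting error alone gives, and the intervals are likely too narrow.

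Full segments of X held 61.1 ± 11.9 peaks (SD, 16 segments). Their coefficient of variation, the SD divided by the mean, was 0.20 on X, against 0.17 on III, 0.21 on I and on IV, 0.24 on II and 0.36 on V. X thus lay inside the range of the autosomes. Spearman's rho of segment order and peaks per Mb was 0.35 over the 16 full X segments, against values from -0.52 on IV to 0.28 on II over the full segments of single autosomes. These are descriptions of neighbouring stretches of DNA, which are not independent.

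Cut into 4 parts of equal length, X held 53.7 peaks per Mb in the first part (47.1 to 61), 59.4 in the second (52.4 to 67.1), 58.1 in the third (51.2 to 65.6) and 74.2 in the fourth (66.4 to 82.7). The fourth part starts at 13293147 and held 326 of the 1078 X peaks. It also held 16 of the 40 X peaks with a strength over 50 and 7 of the 15 X peaks among the 100 strongest of the genome. Each of the other 3 parts held 8 of the peaks over 50, among 236, 261 and 255 peaks in order. These counts of strong peaks are small, and their difference was not tested. The share of peaks with a strength over 10 varied less between the 4 parts. It was 29.2% in the first part, 29.8% in the third, 31% in the second and 32.2% in the fourth. Over the 18 segments this share ranged more widely. It ran from 20% from 10 to 11 Mb (11 of 55 peaks) to 42.6% from 14 to 15 Mb (26 of 61). Peaks with a strength of at most 10 numbered 167, 180, 179 and 221 in the 4 parts, so the fourth part had the most peaks in both classes of strength. Its interval of density overlaps slightly with that of the second part.

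**Figure D1:**
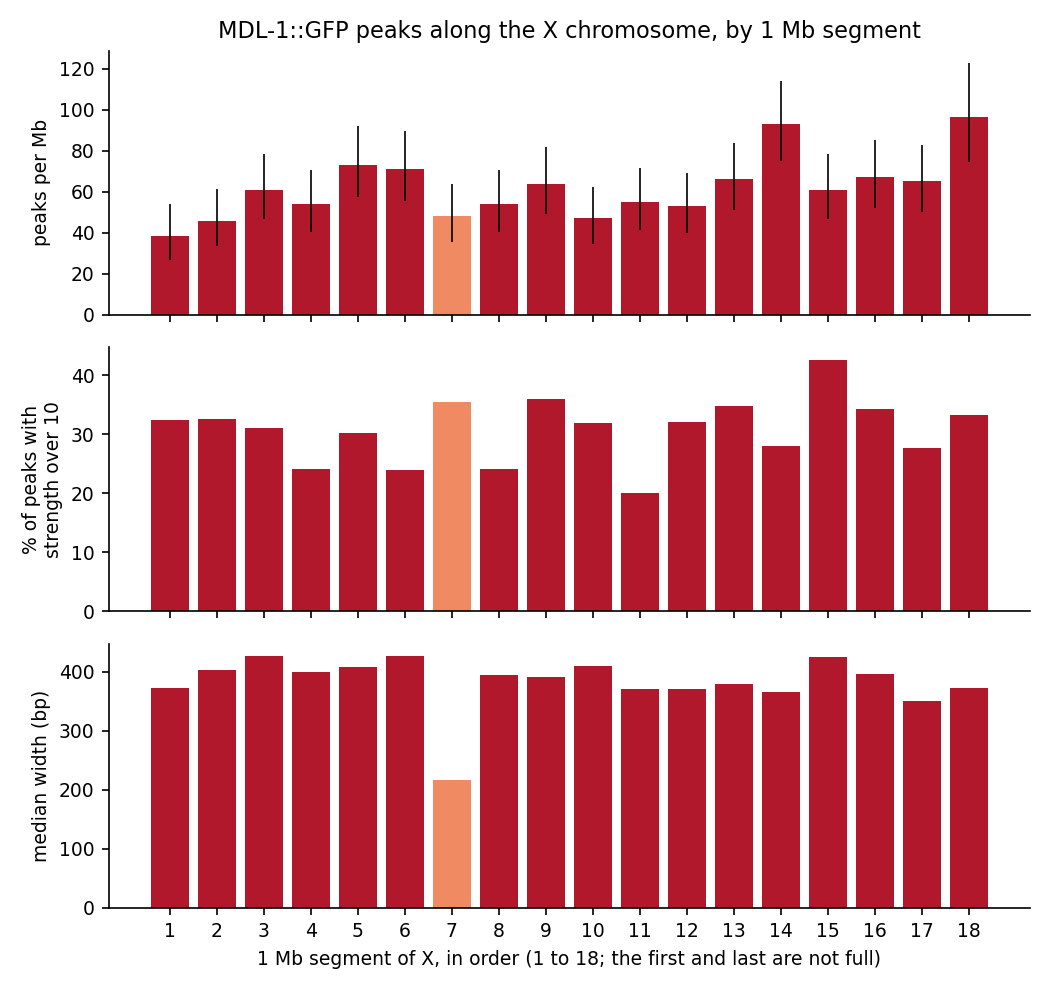
Peaks per Mb with 95% exact Poisson intervals (top), the percentage of peaks with a strength over 10 (middle) and the median width in bp (bottom) in the 18 segments of X, in order from the left end. Density is lowest in the first segment (38.5 per Mb) and highest in the last (96.3 per Mb), and the seventh segment, drawn in a lighter colour, has the lowest median width (216.5 bp).

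Autosomes held more peaks in the middle of their span than outside it, and X did not. On X the central 50% held 516 peaks and the outer parts 562, a density ratio of 0.92 (95% interval 0.81 to 1.04 from the exact binomial interval of the central share). The same ratio was 1.20 on IV, 1.23 on I, 1.26 on III, 1.35 on II and 1.57 on V. X was thus the outermost of the 6 chromosomes, which gives the smallest possible p of 0.17 in the exact test over chromosomes. The interval of X reaches above 1 for this choice of centre, while the lowest bound of an autosome was 1.09, on IV. With the central 33.3% as centre, the ratio on X was 0.83 (0.73 to 0.95), from 316 central and 762 outer peaks. That interval lies below 1, so the reading depends on what is called the centre. It also treats peaks as independent, whereas counts in 100 kb windows of X had a variance of 2.43 times their mean. Whether X has a central deficit therefore cannot be decided from these intervals. Autosomal ratios for this narrower centre ran from 1.15 on III and IV to 1.43 on V.

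The 10 strongest regions of X were spread from its left to its right end, and 6 of them lay at 12872028 or farther right. The strongest was at X:10568230-10569304, and the authors' deposited table gives it a q-value of 2.84e-162, rank 18 in the genome. Its strength of 162 stood alone, since the 2 other peaks within 10 kb of it reached at most 3.91. The second was at X:1503513-1505240, near the left end, and has a q-value of 3.61e-151 by the authors' deposited table. It had 1 other peak within 10 kb, of strength 2.04. The third was at X:16929350-16931976, near the right end, and its q-value was 1.64e-145 by the authors' deposited table. This region was also the widest on X, at 2627 bp, and the only other peak within 10 kb had a strength of 4.40. The leading 3 regions were thus strong peaks among weak ones, in 3 different parts of the chromosome.

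The fourth and the fifth lay close to each other, at X:14817929-14819685 (strength 132) and X:14790072-14790884 (strength 126). Weaker peaks of strength up to 24.3 and 32.4 lay within 10 kb of them. The sixth was at X:13143853-13145627, with a strength of 121. The seventh and eighth were neighbours in 1 group, at X:4142073-4143560 (strength 119) and X:4144206-4145844 (strength 114), separated by 645 bp. The ninth, at X:16796661-16797249 (strength 114), and the tenth, at X:12872028-12872678 (strength 108), were narrower, at 589 and 651 bp. The other eight ran from 813 to 2627 bp. Each of the 10 had its nearest neighbour within 5 kb, at a median of 1098 bp, and in 4 of them it was within 1 kb. Across the X peaks of strength 5 to 10 the median distance to the nearest neighbour was 3192 bp.

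**Figure D2:**
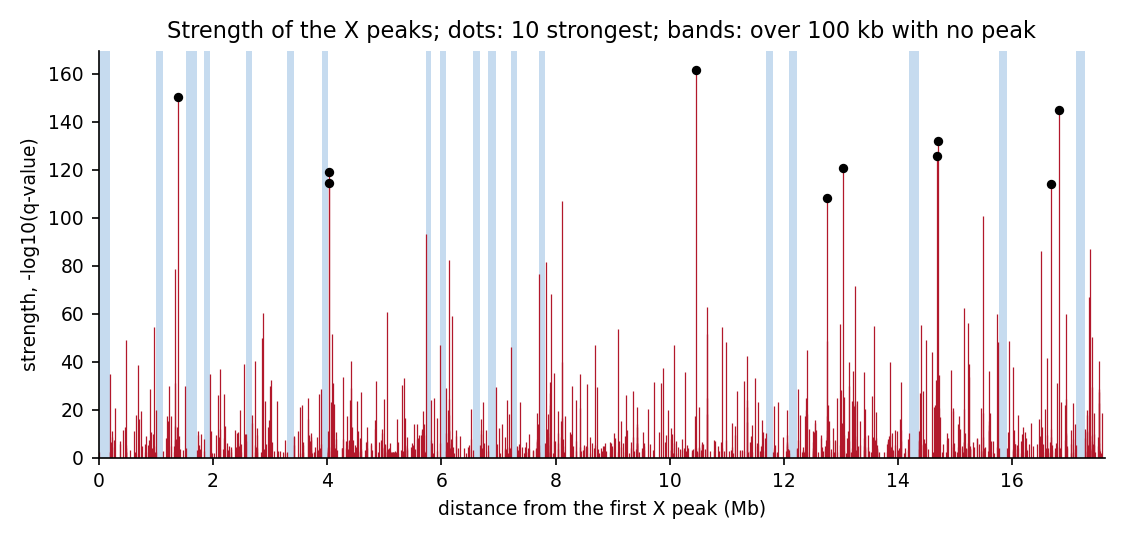
Strength (-log10 of the deposited q-value) of each of the 1078 X peaks against its distance from the first X peak in Mb. Black dots are the 10 strongest peaks, with strengths of 108 to 162, and blue bands are the 18 stretches of over 100 kb that hold no peak, 13 of them left of the midpoint of the span.

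Beyond the leading 50 peaks, X was better represented among the widest regions of the genome than among the strongest. It held 0 of the 10 strongest, 7 of the 50 strongest (14%), 15 of the 100 strongest (15%) and 24 of the 200 strongest (12%). Of the 500 strongest it held 70 (14%) and of the 1000 strongest 145 (14.5%). Over all strengths X held 1078 of the 9533 peaks, a share below each of these percentages and closest to the 12%. By width it held 7 of the widest 50, 16 of the widest 100, 38 of the widest 200, 109 of the widest 500 and 216 of the widest 1000. Of its own peaks 53 (4.92%) were wider than 1000 bp, against 1.82% on II to 3.03% on V.

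The wide regions of X were weaker than those of the autosomes. The median strength of the 53 X peaks wider than 1000 bp was 23.3 (quartiles 10.4 and 54.5), against 51.9 (quartiles 27.3 and 96.1) for the 207 on autosomes. Single autosomes had medians from 37.3 on I to 74.9 on II, so X lay below all 5. A strength under 10 was found for 13 of the 53 on X (24.5%) and for 12 of the 207 on autosomes (5.80%). In the exact test over chromosomes the difference gave a p of 0.333, since II departed further from the other chromosomes than X did.

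The 5 widest X peaks show both kinds. The widest was the third strongest, described above. The second, 2126 bp at X:12517229-12519354, had a strength of only 18.1. The third, 2039 bp at X:7951410-7953448, had a strength of 81.7. The fourth, 2029 bp at X:10767000-10769028, reached 18.3 and the fifth, 2001 bp at X:11472896-11474896, reached 15.1. In the genome these 5 ranked 19, 39, 42, 43 and 46 by width, and 23, 1396, 110, 1375 and 1704 by strength. The fourth and the fifth each had a neighbour very near, at 317 and 255 bp. The weakest X peak of this width class, X:10395559-10396986, extended over 1428 bp with a strength of 3.01.

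Width followed strength less closely on X. The rank correlation of width and strength (Spearman's rho) was 0.57 over the 1078 X peaks, against 0.74 on I to 0.85 on III, a description across peaks that are not independent. X was the outermost of the 6 chromosomes in this measure (exact p = 0.17). The widths came together at high strength. Above a strength of 50 the median width was 847.5 bp on X (40 peaks) and 888 bp on autosomes (252 peaks). Below a strength of 3 it was 272 bp on X (220 peaks) and 138 bp on autosomes (2246 peaks). X peaks of strength 3 to 5 had a median of 329 bp, against 216 bp for autosomal ones. In the class from 5 to 10 the X median was 386.5 bp, against 303 bp, and in that from 10 to 50 it was 502 bp, against 423 bp for autosomal peaks. The greater width of X peaks was thus found in weak and moderate peaks and was not seen in the strongest class.

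**Figure D3:**
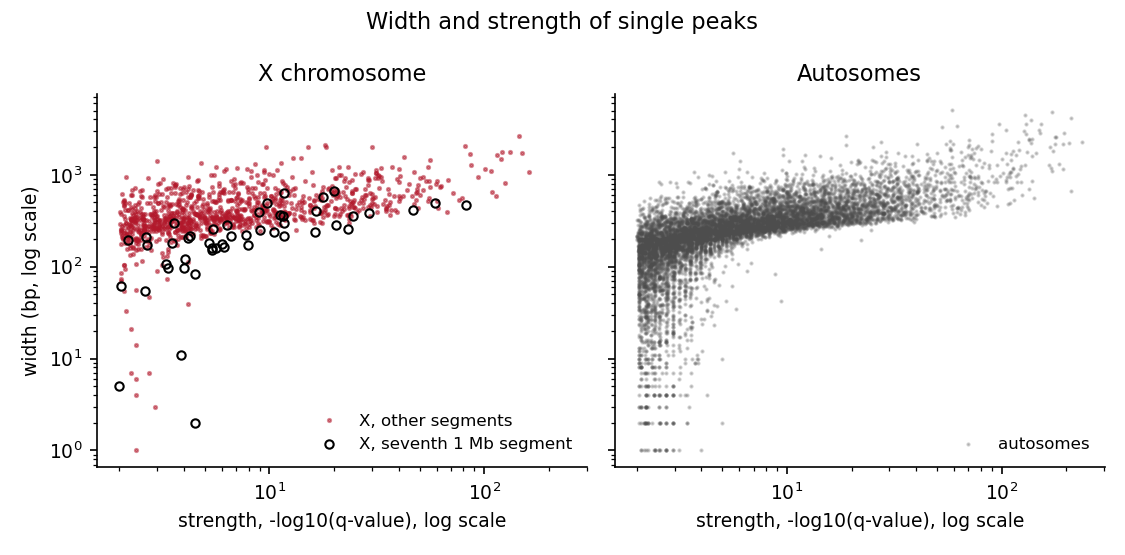
Width in bp against strength (-log10 of the deposited q-value), both on log scales, for the peaks of X (left) and of the autosomes (right). On X few weak peaks are narrow outside the seventh 1 Mb segment (open circles), whose peaks lie along the lower edge, and above a strength of 50 the chromosomes have like widths (medians 847.5 bp on X and 888 bp on autosomes).

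The segment of X from 6 to 7 Mb departed from the rest of the chromosome in width, while its strengths were close to those of the rest. Of its 48 peaks 35.4% had a strength over 10, against 30.5% of the 1030 other X peaks, and the median strength was 6.26 in the segment and 5.66 elsewhere on X. None of its peaks was wider than 664 bp, and 3 (6.25%) were wider than 500 bp, against 333 (32.3%) elsewhere on X. In the class of strength 10 to 50, its 15 peaks had a median width of 354 bp, against 513.5 bp for 276 peaks elsewhere on X and 423 bp for autosomes. From 5 to 10 the medians were 197 bp in the segment, 395.5 bp elsewhere on X and 303 bp on autosomes. Its peaks covered 1.20% of the segment, against 2.17% to 3.92% of each other full segment. The rank correlation of width with strength was 0.79 in this segment and 0.58 over the rest of X, against 0.80 over all autosomal peaks. The segment was singled out in earlier results of these data, so these values are a description.

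Within this segment many peaks lay in 1 short stretch of its left part. From 6201664 to 6296786, over 95123 bp, there were 18 of its 48 peaks. Of the 18, 9 had a strength over 10, against 17 in the whole segment. They included the strongest of the segment, X:6255517-6255983, with a strength of 82.6 over 467 bp. The second strongest, X:6296292-6296786, with 59.1 over 495 bp, also lay in this stretch. The third strongest, X:6091906-6092322 with a strength of 46.8, lay outside it. To the left of this stretch 103868 bp were empty. Farther right, 123395 bp from 6665638 to 6789032 and 133646 bp from 6934700 to 7068345 held no peak. The place of mdl-1, a gene of which the transgene carries further copies, was not used in these coordinates. Whether the locus falls in this segment or in one of its empty stretches was therefore not tested, and the widths and empty stretches given here are to be read with that limit.

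Very narrow peaks were rare on X. Widths under 50 bp were found for 14 of the 1078 X peaks, against 553 of the 8455 autosomal peaks. Of the 14, 3 lay among the 48 peaks of the segment from 6 to 7 Mb, a share close to that on autosomes. The other 11, among 1030 peaks, were scattered from 3179791 to 16699819. All 11 were weak, with strengths from 2.15 to 4.17. The narrowest was a single base at 3892149.

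X had 18 stretches of over 100 kb without a peak, and together they made up 2322666 bp or 13.2% of its span. The share was 8.76% on V, 6.97% on IV, 1.57% on II, 0.828% on I and 0 on III. The 117134 bases to the left of the first X peak also held none and are not counted, since spans start at the first peak. On autosomes the bases before the first peak numbered 722 on II to 51164 on IV. The longest counted stretch of X was 195014 bp at X:117321-312334, between the first X peak, of strength 2.25, and the second, of strength 2.53. The second was 193523 bp at X:1644267-1837789. The third was 163849 bp at X:14312737-14476585, the fourth 148561 bp at X:17236428-17384988 and the fifth 144780 bp at X:15879779-16024558. In the genome the longest 2 of X ranked 2 and 3, after a stretch of V.

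The empty stretches were more frequent on the left of X. From left to right, the 4 parts of equal length held 7, 6, 2 and 3 of them. The leftmost 4 of them, up to the one at X:1965192-2071369, added up to 610135 bp. One of those on the right lay beside a dense stretch. The densest 100 kb window of X, 23 peaks from 17417135 to 17517134, began just to the right of the fourth longest empty stretch.

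Peaks at the edges of empty stretches had strengths close to those of all X peaks. The 36 flanking peaks had a median strength of 5.41 and a median width of 363 bp, and 9 of them (25%) had a strength over 10. Over all X peaks the median strength was 5.66 and 30.7% exceeded 10. The strongest flanking peak, X:5840552-5841486 with a strength of 93.3, stood directly left of 100582 empty bp, with its nearest neighbour at 5155 bp on the other side. The group with the seventh and eighth strongest X peaks also began within 10 kb of an empty stretch, that of 112008 bp at X:4019423-4131430.

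Spacing on X was wider in bp but lay inside the range of the autosomes once each chromosome was scaled by its own mean gap. The median gap between neighbours was 7447 bp on X (95% interval 6611 to 8528), against 3604 bp on II to 4583 bp on I. Divided by the mean gap of 15851 bp on X, this median was 0.47, and on autosomes it was 0.41 on IV and V, 0.43 on II, 0.48 on I and 0.51 on III. The coefficient of variation of the gaps was 1.42 on X and 1.27 to 1.67 on autosomes. Gaps longer than 10 times the mean of the chromosome numbered 3 on X. Autosomes had 2 (I), 4 (II), 0 (III), 8 (IV) and 11 (V). X lay inside the autosomal range in all 3 scaled measures, whereas in its count of stretches over 100 kb it lay above all 5 autosomes.

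**Figure D4:**
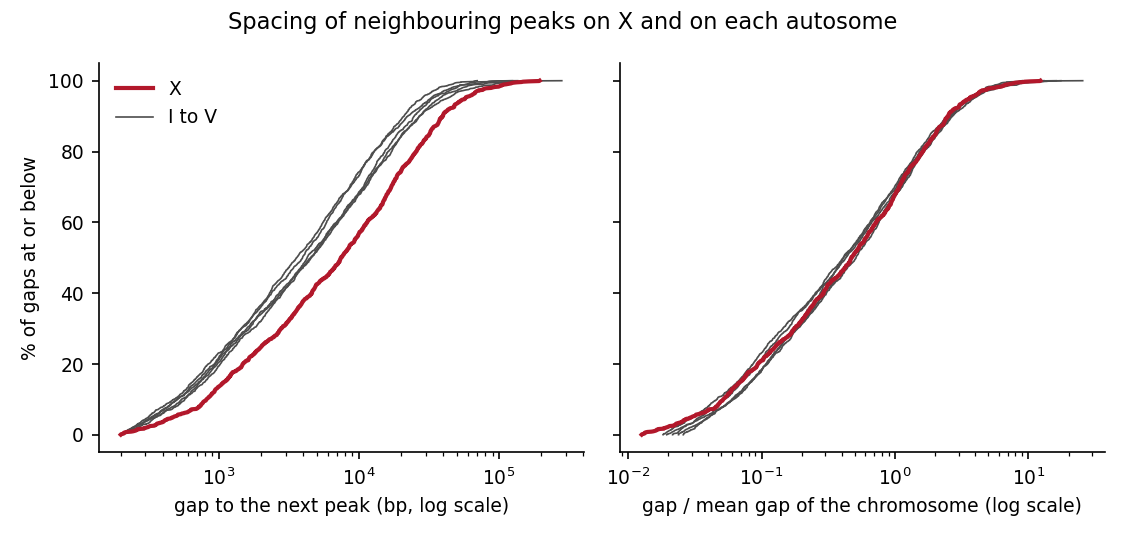
Cumulative percentage of the gaps between neighbouring peaks on X (thick red line) and on each autosome (thin grey lines), in bp (left) and divided by the mean gap of the same chromosome (right), both on log scales. The X curve lies to the right of the others in bp (median 7447 bp) and runs among them after scaling (median 0.47 times the mean gap).

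Groups of peaks within 1 kb of each other were fewer and smaller on X. There were 115 such groups with 261 peaks, which is 24.2% of the X peaks (95% Clopper-Pearson interval 21.7 to 26.9). On autosomes 33.3% of peaks on I to 38.7% on III lay in groups. X had 6.55 groups per Mb, against 11.8 on V to 19.3 on III. Pairs made up 95 of the X groups, 16 had 3 peaks and 4 had more. Groups of 3 or more were 17.4% of the X groups, against 26.8% on I to 30.4% on V. Set against its own density, X lay inside the range of the autosomes: 13.6% of X gaps were within 1 kb, 2.72 times the 4.98% that exponential gaps of the same mean and minimum would give, and on autosomes this ratio ran from 2.31 on III to 2.97 on V.

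The largest X groups differed in make-up. A group of 7 peaks over 9150 bp, X:4136695-4145844, was strongest at its right end. Its first 4 peaks had strengths of 2.30, 4.08, 2.41 and 3.33, the next 11.2, and the last pair 119 and 114. The other group of 7, X:13348311-13356867 over 8557 bp, had no member over 50. Its strengths were 16.3, 3.64, 21.6, 5.32, 23.6, 7.83 and 22.4, so stronger and weaker peaks alternated. A strong peak lay just outside it, beyond the joining distance of 1 kb. This was the next peak to the right, X:13358405-13359032, with a strength of 71.4 and a gap of 1537 bp to the group. A group of 5 at X:8017109-8023080 was strongest in its middle, at 31.5. A group of 4 at X:12629196-12632092 reached 11.3. The largest of the groups of 3, over 4739 bp at X:14499890-14504628, reached 27. Of the 115 groups 66 had a member with a strength over 10 and 13 had one over 50. Grouped X peaks had a median strength of 6.46 and a median width of 450 bp, against 5.52 and 371 bp for the 817 single X peaks. Over autosomes the grouped and the single peaks had median strengths of 5.79 and 4.69.

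Within a fixed distance, the strong peaks of X stood alone more often than those of the autosomes. Among the 40 X peaks with a strength over 50, 14 (35%, 95% Clopper-Pearson interval 20.6 to 51.7) had a neighbour within 1 kb, against 173 of 252 on autosomes (68.7%, 62.5 to 74.3). Single autosomes ran from 61.5% on II to 78.6% on V. The same share was 22.2% of the 747 X peaks with a strength of at most 10, against 31.5% on V to 34.8% on III. X was therefore lowest in both classes (exact p = 0.17 in each, the smallest possible). The shares on X and on autosomes lay farther apart among the strong peaks, where the share on autosomes was 1.96 times that on X, than among the weaker ones, where it was 1.47 times. The difference between these ratios was not tested. Scaling by the mean gap of each chromosome reduced the difference for strong peaks. The median distance from a peak over 50 to its nearest neighbour was 1874 bp on X, against 564 bp on autosomes. As a share of the mean gap it was 0.12 on X, against 0.063 on autosomes. Single autosomes ran from 0.047 on V to 0.088 on I, so X still lay above all 5. A neighbour within 0.1 of the mean gap was found for 50% of these X peaks, against 57.8% on III to 82.1% on V. For peaks with a strength of at most 10 the scaled median was 0.20 on X, inside the range of 0.17 on IV to 0.23 on III.

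When peaks within 1 kb were joined into regions, 39 X regions had a member over 50, and 26 of them (66.7%) consisted of 1 peak. On autosomes the share ran from 26.1% on V to 43.5% on II. These X regions held 1.51 peaks on average and extended over a median of 1224 bp (quartiles 710 and 2051). On single autosomes the averages ran from 2.19 on IV to 3.09 on V, and the median extents from 1710.5 bp on III to 2501 bp on V. So although single X peaks over all strengths were wider, the strongest X regions, with their close neighbours included, had a shorter median extent than those of every autosome (exact p = 0.17). Regions of all strengths also consisted of 1 peak most often on X, in 87.7%, against 79.7% on III to 83% on V. The joining distance of 1 kb was fixed while the mean gap is longer on X, and regions joined at a scaled distance were not examined.

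**Figure D5:**
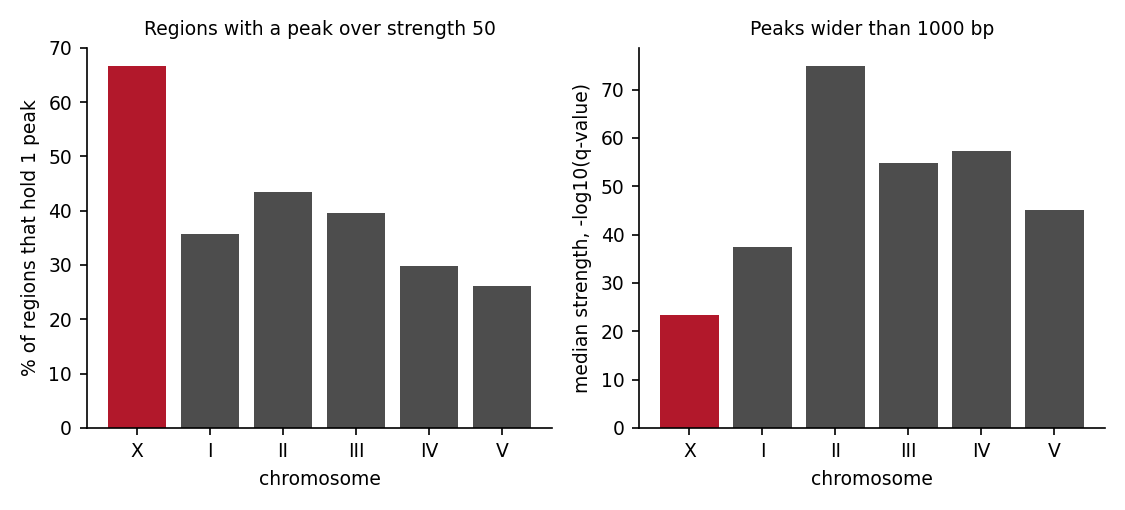
Percentage of regions (peaks within 1 kb joined) with a member over strength 50 that hold only 1 peak (left) and median strength (-log10 of the deposited q-value) of peaks wider than 1000 bp (right), on X and on each autosome. X has the highest share of single-peak regions (66.7%) and the lowest strength of wide peaks (23.3).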

How the data were processed

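MDL-1::GFP binding was measured by ChIP-seq in 2 anti-GFP and 2 input libraries. The file analysed is 1 peak list named as combined. Peaks were called with PeakSeq in WormBase WS180 coordinates, per the file headers and its source column. The authors deposited a q-value for each peak, the largest being 0.00991, and its first and last base, counted from 1. Aligner, filters and the way of combining replicates: not given in the sources used here.

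Strength was -log10 of the q-value. Gaps ran from the last base of a peak to the first of the next. The span of a chromosome reached between its outermost peaks. Groups were runs of peaks with gaps of at most 1 kb, empty stretches were gaps over 100 kb, and segments of 1 Mb were counted from base 1 by midpoint. Intervals of 95% were exact Poisson for densities, Clopper-Pearson for shares and from order statistics for medians. The 10 strongest and 5 widest peaks, the 5 longest empty stretches, the 5 largest groups and the 3 densest and 3 sparsest full segments were named. The members, lists and measures were chosen with earlier results of these data known. The single-peak regions, the 4 parts, the wide peaks and the neighbours of strong peaks were added after the list was seen. The measures were tested on simulated data. Values were computed in Python 3.11.15 with pandas 2.3.3, numpy 2.4.6 and scipy 1.17.1 and drawn with matplotlib 3.10.9.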

Additional observations from a re-analysis of the deposited data

How the results depend on the processing

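The 10 strongest X regions were the same by place in the list, and the ratio of central to outer density on X lay below 1 throughout, from 0.83 with the central 33.3% as centre to 0.94 with peaks within 1 kb merged. Only with the narrower centre did its 95% interval (0.73 to 0.95) exclude 1, and that interval treats peaks as independent. With only the peaks above the median strength of the list, the densest full segment held 52 peaks, the median gap was 16012 bp, 36 stretches were over 100 kb and 16.1% of X peaks had a neighbour within 1 kb. With peaks within 1 kb merged, the median gap was 10005 bp, and 0 of the 5 widest peaks lay in the 5 widest regions, which were groups of 3 to 7 peaks. X had 70 stretches over 50 kb, 0 over 200 kb and 3 over 10 times its mean gap. The share of peaks with a neighbour was 10.02% within 500 bp, 40.5% within 2 kb and 35.6% within 0.1 of the mean gap. These values follow from the thresholds themselves. Without the segment from 6 to 7 Mb, X had 16 empty stretches, placed by their midpoints, a median gap of 7413 bp and a share of 24.2%. The stretch at X:6934700-7068345 starts in that segment but is still among the 16, since its midpoint lies just past 7 Mb. With each autosome left out, the ratio of X to autosomes was 1.74 to 1.82 for the median gap and 0.67 to 0.70 for the share in groups. For the share of the span in empty stretches it was 3.20, and 5.15 without V. Over strength 25, 25.6% of X peaks and 55.6% of autosomal peaks had a neighbour within 1 kb, and over strength 50 the shares within 2 kb were 50% and 82.1%. These checks of strong peaks were chosen after seeing the data, as were 2 for the width of the segment from 6 to 7 Mb. Its mean log2 width, relative to all peaks of the genome in the same of 20 strength classes, was -0.73, where the other X segments lay between 0.40 and 0.81. It was -0.51 for above-median peaks and -0.88 after merging. No paired analysis was possible because the list holds no value per library, and no replicate could be left out. Depth is unknown, so sites below the threshold of the list cannot be counted.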
